A study of Homo sapiens with 5 samples.

Results

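The kallikrein-related peptidase (KLK) genes KLK5 to KLK14 were described across 5 RNA-sequencing libraries of a gefitinib-sensitive and a gefitinib-resistant lung cancer cell line. The 10 genes were taken from the KLK cluster of chromosome 19 because KLK6, one of them, was much lower in the resistant cells. They were thus chosen by their measured FPKM in the comparison of the cell lines, and the difference between the cell lines is given here as a description of these genes, without a p-value. Of the 10, 7 had a row under their own symbol among the 37181 genes and assembled loci of the deposited table, and 2 of these reached the mean of 0.5 FPKM that was required for the comparison across all genes, which covered 16189 entries.

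HCC827 is an established line of human lung adenocarcinoma cells, and all libraries carry the label of an exon 19 deletion. The gefitinib-resistant HCC827/GR cells were derived from HCC827 by stepwise dosing with this EGFR tyrosine kinase inhibitor for over 6 months, and they are a single derived line. The libraries were HCC827/GR replicates 1, 2 and 3 and parental, gefitinib-sensitive HCC827 replicates 2 and 3. Nothing in the labels says that they came from separate cultures, so p-values measure only the spread between these libraries, which may be technical.

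Kallikrein-related peptidases are secreted serine proteases that are made as inactive precursors and cut proteins after basic residues, as trypsin does, or after bulky hydrophobic ones, as chymotrypsin does. They are best known from the epidermis, where they activate each other in a cascade and cut the junctions that hold cornified cells together, and from hormone-responsive tissues. Some cut growth factor carriers, matrix proteins and protease-activated receptors, and several are abundant in carcinomas of epithelial origin.

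All 10 genes lie on the minus strand of chromosome 19 and, in GENCODE 29 on GRCh38, span 140.9 kb from the end of KLK5 at 50943303 to the start of KLK14 at 51084245. The order along the chromosome is KLK5, KLK6, KLK7, KLK8, KLK9, KLK10, KLK11, KLK12, KLK13 and KLK14. The deposited table holds no coordinates, so positions came from the Ensembl transcript identifiers of each row.

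The DNA just before the transcript start is shown for KLK6, which carried most of the expression, for its neighbour KLK5, which was listed at 0 in the resistant cells, and for KLK14, which was not. The sequences are from RefSeq (GRCh38.p14), minus strand, and run 5′ to 3′ toward the gene. Bases that GENCODE 29 places in an exon of the gene were left off, and capitals mark a GC box (GGGCGG or its reverse complement). The coordinates are chr19:50969674-50969841 for KLK6, chr19:50953094-50953288 for KLK5 and chr19:51084246-51084460 for KLK14.
KLK6: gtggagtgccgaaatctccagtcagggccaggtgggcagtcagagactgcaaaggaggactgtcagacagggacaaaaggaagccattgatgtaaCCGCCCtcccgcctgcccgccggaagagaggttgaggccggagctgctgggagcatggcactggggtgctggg
KLK5: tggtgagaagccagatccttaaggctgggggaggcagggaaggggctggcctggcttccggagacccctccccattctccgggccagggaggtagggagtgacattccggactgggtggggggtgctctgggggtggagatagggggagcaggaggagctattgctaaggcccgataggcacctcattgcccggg
KLK14: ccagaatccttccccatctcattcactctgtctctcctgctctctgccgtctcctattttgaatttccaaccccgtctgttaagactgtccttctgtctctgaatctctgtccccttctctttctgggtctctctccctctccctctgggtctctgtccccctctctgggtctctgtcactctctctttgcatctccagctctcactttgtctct

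The full windows of 250 bases before the RefSeq start were scanned on both strands for this GC box and for 3 other motifs that do not overlap with it. The E2 box, which zinc finger repressors of epithelial genes bind, was searched as CAGGTG. The TATA box of core promoters was searched as TATAAA. The AP-1 site was searched as TGANTCA, where N stands for any base. The KLK6 window held 3 GC boxes, of which 1 lies in the printed stretch, and 1 E2 box, and its GC content was 66.8% with 12 CpG dinucleotides. KLK14 has 3 RefSeq starts, and the window shown is the one nearest to the start of a transcript in the table. This window and that of KLK5 held none of these 4 motifs, with 52.4% GC and 2 CpG dinucleotides for KLK14 and 64.8% GC and 6 for KLK5. The other windows of KLK14 each held 2 GC boxes. Among the 35116 windows of the same length in the table, 42.6% held a GC box, 17.5% an E2 box, 10.7% a TATA box and 6.57% an AP-1 site, and the median window had 58% GC and 11 CpG dinucleotides. The KLK14 window shown was the poorest in CpG of the 3, it and that of KLK5 were below the median of all windows, and KLK6 had one close to that median. Of the windows not printed, chosen in the same way, that of KLK10 held none of the 4 motifs. Those of KLK7 and KLK11 each held a GC box and an E2 box. Whether these motifs bear on expression was not tested. A match is only a match of letters.

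KLK6, a trypsin-like peptidase also known as neurosin, was the only one of the 7 listed genes that was abundant. Its expression in FPKM, a level already divided by transcript length, was 19.1 in HCC827 replicate 2 and 24.4 in HCC827 replicate 3. In HCC827/GR cells it was listed at 0 in replicates 1 and 2 and at 0.0546 FPKM in replicate 3. Every resistant library was thus far below both parental ones, which had a mean of 21.8 ± 3.76 FPKM (SD, n = 2). On the log2(FPKM + 1) scale the difference, HCC827/GR minus HCC827, was -4.47 with a standard error of 0.13 (limma), the rank 4 among all 16189 entries in order from the most lowered. Because the resistant libraries were at or next to 0, this size depends on the pseudocount, and it was -7.55 with 0.1 FPKM in place of 1. These are bulk libraries, in which fewer cells of a type and less RNA per cell cannot be told apart.

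KLK10, first known as a gene of normal epithelial cells, was the listed member next in level. It was at 2.21 FPKM in HCC827 replicate 2 and at 0.712 FPKM in HCC827 replicate 3, and it was listed at 0 in all 3 HCC827/GR libraries. The groups did not overlap, but the parental libraries themselves differed by more, as a ratio, for KLK10 than for KLK6. KLK6 exceeded KLK10 by 8.66 times in replicate 2 and by 34.3 times in replicate 3. The difference for KLK10 on the log2(FPKM + 1) scale was -1.23 (standard error 0.30), which likewise depends on the pseudocount. It was -1.68 without HCC827 replicate 3 and -0.78 without HCC827 replicate 2.

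A call required a change of at least 2-fold and a Benjamini-Hochberg adjusted p under 0.05 over all entries tested. Of the 2 KLK genes tested, 1 was called lower and 0 were called higher, beside 3.09% of all entries called lower and 2.43% called higher. The rule that chose the genes used this contrast, so nothing is read from the count. The median difference of the 2 was -2.85, with 0.0014 for the median of all entries, and over the 7 listed genes, most of them below the filter, the median was -0.12. Both tested genes passed the filter only through the HCC827 libraries, so nothing is read from the median either. The plot of mean expression places both among all entries.

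**Figure D1:**
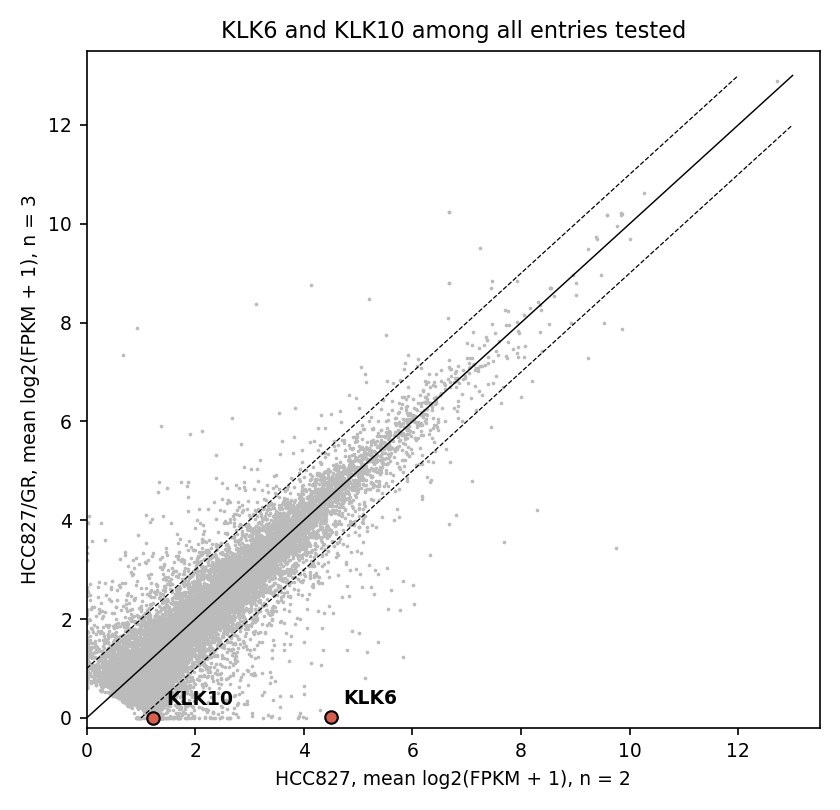
Each gray point is 1 of 16189 entries, with the mean log2(FPKM + 1) of the 2 HCC827 libraries on the horizontal axis and of the 3 HCC827/GR libraries on the vertical axis. The solid line marks equal means, the dashed lines a 2-fold change, and KLK6 and KLK10 (red) lie at or next to 0 in HCC827/GR cells, at differences of -4.47 and -1.23.

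The epidermal peptidases KLK5, KLK7 and KLK14 were low throughout. KLK5, a trypsin-like enzyme that starts the epidermal cascade, was at 0.124 and 0.0435 FPKM in HCC827 replicates 2 and 3 and listed at 0 in all 3 HCC827/GR libraries. KLK7, the chymotrypsin-like enzyme that KLK5 activates, was at 0.253 and 0.0605 FPKM in the same parental libraries and listed at 0 in all 3 resistant ones. Both genes were thus listed above 0 only in parental cells, at levels below the filter, so neither was tested. The differences on the log2(FPKM + 1) scale were -0.12 for KLK5 and -0.20 for KLK7.

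KLK14, another trypsin-like member of the epidermal cascade, was the exception. It was at 0.231 and 0.0494 FPKM in HCC827 replicates 2 and 3 and at 0.0834, 0.0934 and 0.0381 FPKM in HCC827/GR replicates 1, 2 and 3. It was the only one of the 10 listed above 0 in every library, and 2 resistant libraries had more than HCC827 replicate 3, so the groups overlapped. The difference was -0.09 on the log2(FPKM + 1) scale.

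KLK11, a trypsin-like peptidase found in brain and prostate, was at 0.012 and 0.0203 FPKM in HCC827 replicates 2 and 3 and listed at 0 in all 3 HCC827/GR libraries. KLK13 was listed at 0 in all 5 libraries. KLK8, KLK9 and KLK12 had no row under their symbols. The transcripts of KLK8, known as neuropsin, were found in a row named AC011473.4, which joins KLK8 with a readthrough gene over 6 transcripts. That joined row was at 0.0669 and 0.0738 FPKM in HCC827 replicates 2 and 3 and at 0 in all 3 HCC827/GR libraries, but its value cannot be given to KLK8 alone. No row held a known transcript of KLK9 or KLK12.

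The order of the levels in parental cells, by the mean of both libraries, was KLK6, KLK10, KLK7, KLK14, KLK5, KLK11 and KLK13. KLK6 and KLK10 each stood clear of the next gene in both libraries. The values of KLK7, KLK14 and KLK5 overlapped one another, between 0.0435 and 0.253 FPKM, and KLK11 lay below them in both. The 7 genes summed to between 21.9 and 25.3 FPKM in HCC827 libraries and to between 0.0834 and 0.0934 FPKM in HCC827/GR libraries, and KLK6 made up 87.1% of the sum in HCC827 replicate 2 and 96.5% in replicate 3. Within the parental cells, 4 of the 7 were higher in replicate 2 than in replicate 3 and 2 were lower, KLK6 among the latter.

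Of the 7 listed genes, 5 were lower in every HCC827/GR library than in every HCC827 library. Over all 37181 entries, 18.1% had this order, and over the 16189 tested 23.4% had it. KLK5, KLK6, KLK7, KLK10, KLK11 and KLK14 were above 0 in both HCC827 libraries. Of these, 4, namely KLK5, KLK7, KLK10 and KLK11, were listed at 0 in all 3 HCC827/GR libraries. This pattern was found in 2.73% of all 24497 entries above 0 in both HCC827 libraries, and in 4.53% of the 13587 among them whose HCC827 mean did not exceed that of KLK10. The contrast chose the KLK genes, so nothing is read from these counts.

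FPKM carries no read counts, but low values showed how fine the measurement was. For entries with 1 transcript, low FPKM values multiplied by the transcript length in kilobases piled up near multiples of a step of between 0.0154 and 0.0210. Between 63.8% and 66.5% of values lay within 0.15 of a step from a multiple. The step was picked as the one with the clearest pile-up in these same values, and some values would lie that near without any step. With HCC827 replicate 3 set to 1, these steps gave a relative depth of 1.13 for HCC827 replicate 2 and of 1.08, 1.14 and 1.36 for HCC827/GR replicates 1, 2 and 3. The ranges of the cell lines thus overlapped. Taking the longest annotated transcript of each gene, which gives an upper estimate, KLK6 corresponded to 1752 and 1988 steps in HCC827 replicates 2 and 3 and to 6.06 steps in HCC827/GR replicate 3. KLK10 corresponded to 368 and 105 steps in the parental libraries. KLK5, with 10.4 and 3.23 steps, KLK7, with 26.8 and 5.69, and KLK11, with 0.991 and 1.49, rested on fewer or, for KLK11, about 1. KLK14 corresponded to 14.03 and 2.67 steps in the parental libraries and to 4.87, 5.75 and 2.81 in HCC827/GR replicates 1, 2 and 3, so its values in resistant cells also rest on few steps. A listed 0 for KLK11 was therefore not distinguishable at this depth from its parental level.

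Other entries of the locus were then listed. From KLK5 to KLK11, over 84.7 kb, the table lists 8 entries, which are the 5 listed KLK genes of this interval, the joined KLK8 row and 2 antisense RNAs. All 8 were lower in every HCC827/GR library than in both HCC827 libraries, and 7 of them, all but KLK6, were listed at 0 in all resistant libraries, beside 18.1% and 2.73% for these orders in the whole table, as above. The 5 KLK genes were chosen by this contrast, so nothing is read from these counts. By the GENCODE names of their transcripts, the antisense RNA AC011483.2, which overlaps KLK5 and KLK6, was at 0.117 and 0.0219 FPKM in HCC827 replicates 2 and 3, and AC011483.1, which starts within KLK6 and runs past KLK7 and KLK8, was at 0.0613 and 0.0184 FPKM. Both overlap KLK genes on the other strand, and the sources used here do not say whether counting used the strand, so their reads cannot be told apart from those of the KLK genes. KLK14, whose nearer end lies 49.5 kb beyond KLK11, had no such separation.

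Outside the 10 genes, KLK15 and KLK4 were at or close to 0, with KLK4 at 0.00964 FPKM in HCC827 replicate 2 and KLK15 at 0.00208 FPKM in HCC827/GR replicate 2 as the only values above 0. KLK1, KLK2, KLK3 and the pseudogene KLKP1 had no row. Among the 10 protein-coding genes on each side of all KLK genes, 16 entries were listed. Of these, 5 were lower in every resistant library, an order found in 18.1% of all entries, 1 was higher and 10 overlapped. At 0 in all resistant libraries while above 0 in both parental ones were 0 of them. This pattern was found in 2.73% of all entries above 0 in both parental libraries. The differences of the flanking entries ran from -0.30 to 0.27 with a median of -0.04 on the log2(FPKM + 1) scale, and 3 reached the filter. Of the 3, limma called 0 higher and 0 lower, beside 2.43% and 3.09% of all entries tested, and 1 had an unadjusted p under 0.05, with a change under 2-fold. These were C19orf48, CTU1 and the row that joins ETFB and CLDND2.

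**Figure D2:**
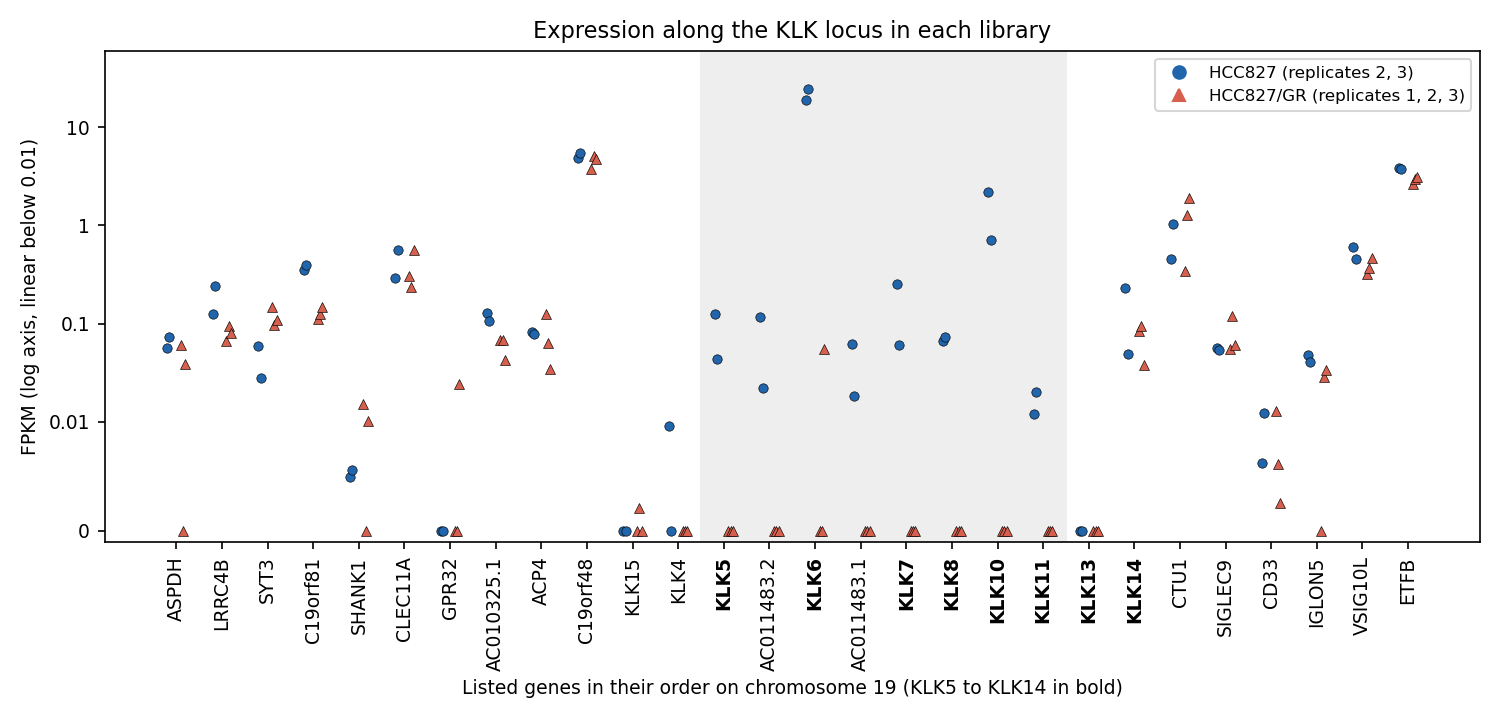
Expression in FPKM (vertical axis, logarithmic above 0.01 and linear below it) of each listed gene in chromosomal order, with HCC827 libraries as blue circles and HCC827/GR libraries as red triangles. In the shaded interval from KLK5 to KLK11, where the row labelled KLK8 is the joined row, only KLK6 in 1 library lies above 0 among the red triangles, whereas KLK14 and most flanking genes have values in both cell lines.

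The proteins that act with KLK peptidases were then examined in lists that were chosen with earlier results of these data known. Of 9 inhibitors of KLK peptidases, 3 were tested, and limma called 0 higher and 0 lower, beside 2.43% and 3.09% of all entries. An unadjusted p under 0.05 was found for 2 of them, both with a change under 2-fold. These were SERPINA1, at a log2 difference of -0.41 (adjusted p = 0.0632 from limma), and SERPINF2, at 0.66 (adjusted p = 0.0483 from limma). Of the 8 listed inhibitors, 4 were lower in every resistant library, an order found in 18.1% of all entries, 1 was higher and 3 overlapped. SPINK5, which encodes the main epidermal inhibitor of KLK5 and KLK7, was at 0.104 and 0.0841 FPKM in HCC827 replicates 2 and 3 and listed at 0 in all HCC827/GR libraries, below the filter. SPINK6, another inhibitor, had no row.

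Of 15 receptors and substrates, 7 were tested, and 0 were called higher and 2 lower, with a median difference of -0.23. Over all entries tested, 2.43% were called higher and 3.09% lower. At an unadjusted p under 0.05 and a 2-fold change, 1 was higher, which was MMP9, a matrix-degrading metalloprotease. It was at 1.14 and 0.779 FPKM in HCC827 replicates 2 and 3 and at 12.3, 1.93 and 15.8 FPKM in HCC827/GR replicates 1, 2 and 3, without overlap (log2 difference 2.15, standard error 0.81, adjusted p = 0.179 from limma). F2RL1, the protease-activated receptor PAR2 that trypsin-like KLK peptidases cut, was at 3.59 and 3.96 FPKM in HCC827 replicates 2 and 3 and at 3.03, 3.91 and 3.20 FPKM in HCC827/GR replicates 1, 2 and 3. The groups overlapped (log2 difference -0.13, standard error 0.13, adjusted p = 0.569 from limma). F2R, the thrombin receptor PAR1, was at 18.6 and 22.8 FPKM in parental cells and at 37.1, 0.664 and 34.5 FPKM in HCC827/GR replicates 1, 2 and 3. Replicate 2 thus stood on the other side of the parental cells from the other resistant libraries, and without it the log2 difference went from -0.72 (standard error 1.52, adjusted p = 0.814 from limma) to 0.77, a change of sign.

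The receptor and substrate genes called lower were IGFBP3 and FN1. IGFBP3, a carrier of insulin-like growth factors, fell from 38.7 and 42.0 FPKM to 8.17, 4.52 and 7.32 FPKM in HCC827/GR replicates 1, 2 and 3 (log2 difference -2.46, standard error 0.25, adjusted p = 0.0102 from limma). FN1, the matrix protein fibronectin, fell from 17.0 and 15.1 FPKM to 4.72, 5.37 and 3.99 FPKM (log2 difference -1.59, standard error 0.14, adjusted p = 0.00794 from limma). Both were lower in every resistant library, an order found in 23.4% of all entries tested. With 1 parental library left out, the adjusted p of IGFBP3 was 0.0703 without HCC827 replicate 2 and 0.0685 without replicate 3, and that of FN1 was 0.0576 without replicate 2.

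Of 30 other serine proteases, 10 were tested, and 0 were called higher and 4 lower, with a median difference of -0.78. The shares over all entries tested were 2.43% called higher and 3.09% lower. Of the 29 listed, 12 were lower in every HCC827/GR library, an order found in 18.1% of all entries, 5 were higher and 12 overlapped. Among the higher ones, HTRA1 went from 3.835 and 3.001 FPKM to 6.65, 6.449 and 6.096 FPKM. Its change was under 2-fold (log2 difference 0.75, standard error 0.12, adjusted p = 0.0268 from limma). ST14, the membrane-bound protease matriptase, fell from 37.9 and 31.6 FPKM in HCC827 replicates 2 and 3 to 1.42, 2.05 and 1.19 FPKM in HCC827/GR replicates 1, 2 and 3 (log2 difference -3.82, standard error 0.18, adjusted p = 0.00234 from limma). PRSS8, its partner prostasin, fell from 6.93 and 4.67 FPKM to 1.09, 1.38 and 1.21 FPKM (log2 difference -1.59, standard error 0.17, adjusted p = 0.0119 from limma). Both were lower in every resistant library, an order found in 23.4% of all entries tested. The adjusted p of PRSS8 from limma was 0.0547 without HCC827/GR replicate 1.

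PRSS22, a tryptase of airway epithelium, went from 3.79 and 2.88 FPKM to 0.934, 1.36 and 0.678 FPKM, with an adjusted p of 0.0319 (limma). PRSS3, a trypsinogen, went from 4.48 and 6.31 FPKM to 2.22, 1.5 and 2.06 FPKM, with an adjusted p of 0.0305 (limma). PRSS3 shares near-identical sequence with other trypsinogen genes, so its value is uncertain. Both calls were lost in several alternatives. For PRSS22 the adjusted p was between 0.0708 and 0.148 without HCC827 replicate 2, HCC827 replicate 3, HCC827/GR replicate 1 or HCC827/GR replicate 3, and for PRSS3 it was between 0.0775 and 0.117 with any 1 library left out.

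Of 22 genes of keratinocyte differentiation and the cornified envelope, 5 were tested, with a median difference of -0.39. Limma called 0 of them higher and 0 lower, beside 2.43% and 3.09% of all entries. An unadjusted p under 0.05 was found for 2, both with a change under 2-fold. Of the 14 listed, 9 were lower in every HCC827/GR library, an order found in 18.1% of all entries, 2 were higher and 3 overlapped. IVL, at 0.0953 and 0.0998 FPKM in HCC827 replicates 2 and 3, and SPRR1B, at 0.120 and 0.271 FPKM, were listed at 0 in all HCC827/GR libraries, below the filter. The 2 higher ones were FLG and CNFN. FLG, also below the filter, went from 0.029 and 0.047 FPKM to 0.186, 0.334 and 0.190 FPKM in HCC827/GR replicates 1, 2 and 3. CNFN went from 0.866 and 0.837 FPKM to 1.15, 1.14 and 0.956 FPKM and was not called. Of 10 receptors for steroid hormones, retinoic acid and vitamin D, 4 were tested, and 0 were called higher and 1 lower, beside 2.43% and 3.09% of all entries. The gene called was RARG, a retinoic acid receptor of epithelia, which fell from 7.41 and 5.94 FPKM to 1.74, 1.92 and 1.56 FPKM in HCC827/GR replicates 1, 2 and 3 (log2 difference -1.48, standard error 0.13, adjusted p = 0.00784 from limma). The plot of the gene lists shows these differences beside KLK6 and KLK10.

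**Figure D3:**
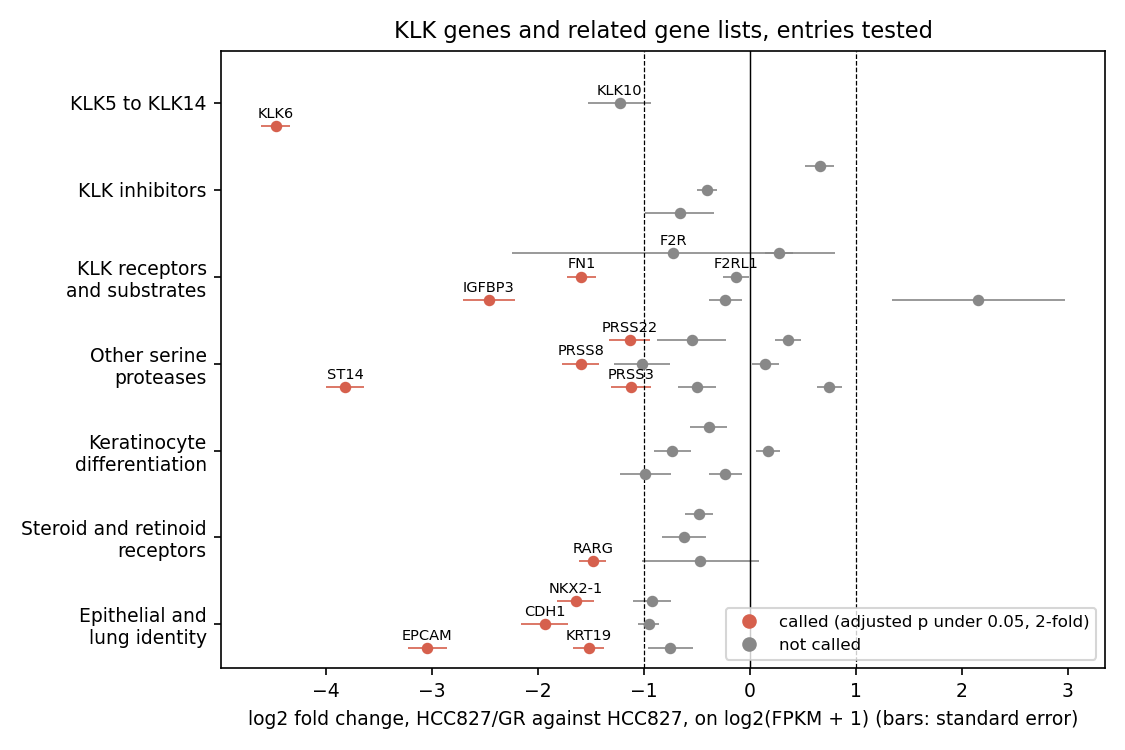
Difference in mean log2(FPKM + 1), HCC827/GR minus HCC827 (horizontal axis), for every gene tested in each list (vertical axis), with bars for the standard error, red for called genes and dashed lines at 2-fold. All called genes lie on the lower side, and KLK6 at -4.47 lies farther out than ST14 at -3.82 and EPCAM at -3.04.

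Some markers of epithelial identity were lower in HCC827/GR cells as well, and their part in the KLK result was not tested. Of 10 markers, 8 were listed, and all 8 had lower values in every resistant library, an order found in 18.1% of all entries. Of 7 tested, 4 were called lower and 0 higher, beside 3.09% and 2.43% of all entries, and KRT8, KRT18 and MUC1 were not called. Their summed level was between 1078 and 1197 FPKM in HCC827 libraries and between 447 and 578 FPKM in HCC827/GR libraries, and 0 of the 8 were listed at 0. EPCAM, an epithelial adhesion protein, fell from 86.9 and 72.6 FPKM to 7.32, 10.8 and 8.53 FPKM (log2 difference -3.04, standard error 0.19, adjusted p = 0.00349 from limma). CDH1, KRT19 and NKX2-1, the last in a row that joins 3 genes, had log2 differences of -1.93, -1.52 and -1.64 with adjusted p-values from limma of 0.0125, 0.00997 and 0.0114. The adjusted p was 0.0789 or 0.0549 for CDH1 and 0.0798 or 0.0633 for NKX2-1 without HCC827 replicate 2 or 3, and 0.0522 for KRT19 without HCC827 replicate 2 and 0.0518 without HCC827/GR replicate 1.

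Of 14 markers of other cell types, 11 were listed, with sums between 4.81 and 6.18 FPKM in HCC827 libraries and between 0.921 and 1.25 FPKM in HCC827/GR libraries. The leukocyte marker PTPRC was at most 0.0228 FPKM in any library, and CD3E, HBB and KRT5 had no row. Of 2 tested, 0 were called higher and 1 lower, beside 2.43% and 3.09% of all entries. The call was in a row named PECAM1 after the endothelial and platelet adhesion gene. This row was at 4.34 and 3.32 FPKM in HCC827 replicates 2 and 3 and listed at 0 in all HCC827/GR libraries. Its adjusted p was 0.0039 from limma. The row was matched to no GENCODE gene, so its assignment to PECAM1 rests on the symbol alone. It made up most of the summed level in both HCC827 libraries, so the lower sums in HCC827/GR libraries rest largely on it.

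The 5 protein-coding entries whose pattern over the 5 libraries was most like that of KLK6 were SEC61G, CDH3, AC009495.1, LY6D and ESRP1. Likeness was the Euclidean distance between log2(FPKM + 1) values centred on each gene's own mean, and it was 0.545, 0.684, 0.765, 0.768 and 0.876 in that order, among 10975 protein-coding entries tested. The row named AC009495.1 also holds GALNT3. The same contrast picked these genes, so their differences of -4.08, -4.59, -3.97, -4.12 and -3.83 on the log2(FPKM + 1) scale are a description.

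SEC61G, a subunit of the protein translocation channel of the endoplasmic reticulum, was at 311 and 313 FPKM in HCC827 replicates 2 and 3 and at 15.4, 16.9 and 20.7 FPKM in HCC827/GR replicates 1, 2 and 3. CDH3, which encodes P-cadherin, was at 59.5 and 52.7 FPKM in the parental libraries and at 1.28, 2.09 and 0.873 FPKM in the resistant ones. ESRP1, an epithelial splicing regulator, was at 16.3 and 12.3 FPKM and at 0.0476, 0.10 and 0.0475 FPKM. None of these 3 genes overlapped between the groups, an order that follows from how they were picked. KLK6 was listed at 0 in 2 resistant libraries, which these 3 genes were not. LY6D was listed at 0 in HCC827/GR replicate 3, and the AC009495.1 row had a resistant mean of 0.0175 FPKM, beside 0.0182 for KLK6. Values at or next to 0 in resistant cells were thus not particular to KLK6.

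**Figure D4:**
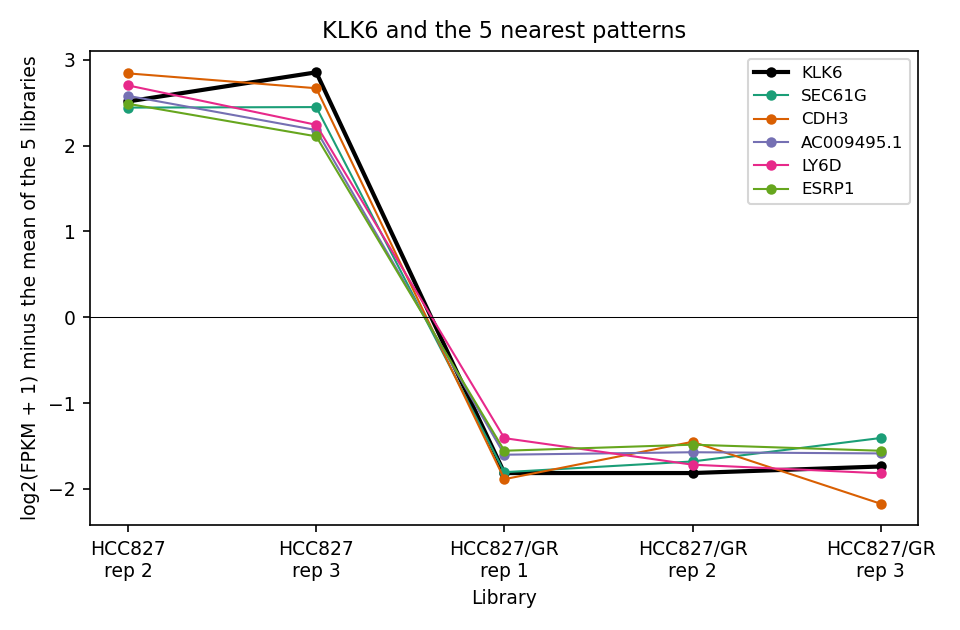
Log2(FPKM + 1) of KLK6 (black) and of the 5 entries nearest to it, each minus its own mean over the 5 libraries (vertical axis), in each library (horizontal axis), with lines joining the points of 1 gene. The HCC827 libraries lie above 0 and the HCC827/GR libraries below 0 for all 6 genes, and KLK6 alone was visibly higher in HCC827 replicate 3 than in replicate 2.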

How the data were processed

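The authors deposited 1 table of FPKM values per gene or assembled locus, made with Cutadapt, Bowtie2, TopHat2, StringTie and Ballgown. The submitters' processing notes name hg18, whereas 135164 of 135299 Ensembl transcript identifiers in the table matched GENCODE 29 (GRCh38). The sample labels describe a small-RNA library and the study's methods an mRNA library. The table holds 1 FPKM column of no deposited sample, which was not used, and no read counts.

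HCC827/GR libraries (n = 3) and HCC827 libraries (n = 2) were compared with limma 3.58.1 in R 4.3.3 on log2(FPKM + 1), using lmFit and eBayes with trend and a two-sided test, for entries averaging at least 0.5 FPKM, with Benjamini-Hochberg adjustment over all entries. The fit was tested on simulated data. For a symbol with several rows, the row with the highest mean was taken. Python 3.11.15 with pandas 2.3.3, numpy 2.4.6 and matplotlib 3.10.9 was used for the other steps.

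The KLK genes and all gene lists were chosen with earlier results of these data known. Named were all 10 KLK genes, up to 6 called genes per list and flank, F2R, F2RL1, SPINK5, SPINK6 and the 5 nearest patterns to the KLK gene of highest mean. SERPINA1, SERPINF2, MMP9, HTRA1, IVL, SPRR1B, FLG, CNFN, PTPRC and the uncalled epithelial markers were named after their values were seen. The settings varied one at a time were the pseudocount (0.1 FPKM), the filter (none, or at least 1 FPKM), the scaling (median ratio or quantile), the trend (none), Ballgown's covariate for library size, a block for replicate numbers, the summing of rows with a shared symbol, the fold change (ratio of mean FPKM) and the libraries (each left out in turn).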

Additional observations from a re-analysis of the deposited data

How the results depend on the processing

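KLK6 was lower in HCC827/GR cells in all 15 alternatives, with a log2 difference between -10.2, from the ratio of the mean FPKM, and -4.30. It was -4.52 with Ballgown's library-size covariate, fitted without moderation, and -4.46 with the replicate block. The contrast chose the KLK genes, so these values and counts describe how the settings act and say nothing of stability. Ballgown's covariate called 6 entries higher, 7 lower and 0 KLK genes, against 393, 500 and 1 in the reported comparison. The replicate block called 0 higher, 0 lower and 0 KLK genes by limma, although 506 entries were higher and 709 lower at least 2-fold at an unadjusted p under 0.05. Every list gene named as called lost its call under both of these settings. Only numbers 2 and 3 are shared between the cell lines, and deviations of same-numbered libraries correlated at 0.0328 and 0.0147 over 16189 entries, so the numbers were not taken as a pairing. The median over the KLK genes was -5.66 with a pseudocount of 0.1, -0.16 over 6 genes without a filter and -4.47 over 1 gene at a mean of at least 1 FPKM. With each library left out, between 191 and 381 entries were higher, between 279 and 404 lower and between 1 and 2 KLK genes lower, and the median was between -2.99 and -2.71. KLK10 was the gene added without HCC827 replicate 3. Depth limits KLK11 most, at about 1 step of the table, and KLK5, KLK7 and KLK14 had between 2.67 and 26.8 steps where above 0. The 2 parental libraries limit all tests.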
